A study of Mus musculus with 24 samples.

Results

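The RNA of CD135-negative, Rag2-GFP-positive LSK cells (Lin-negative, Sca1-positive, Kit-positive) was studied in bone marrow. Mice with Tal1 targeted for deletion in blood cells were compared with control mice in the same gate. These cells are called HSC in the labels. The comparison used 6 libraries of 24, chosen by their genotype, CD135 gate and reporter gate alone. The Ctrl group (n = 3) carried floxed Tal1 alleles (Tal1 F/F, called wild type in the labels) and the Rag2GFP reporter. The KO group (n = 3) carried the same alleles and reporter together with VaviCre, a recombinase driven by the Vav promoter in blood cells at large, so deletion was not limited to these cells. All 6 libraries thus share the floxed alleles and the reporter. Ages are not given in the sources used here. No label states that replicates are different mice, and the p-values therefore reflect only how these libraries varied, in part perhaps for technical reasons.

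TAL1 is a basic helix-loop-helix transcription factor that binds E-box DNA as a dimer with an E protein, usually in a complex with LMO2, LDB1 and a GATA factor. It is required to make blood stem cells in the embryo and drives erythroid and megakaryocytic differentiation in the adult. RAG2 is a subunit of the recombinase that rearranges antigen receptor genes, and a Rag2 reporter marks progenitors that have begun a lymphoid programme.

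Levels are normalised counts as deposited by the authors, over 17149 genes, and depth in reads is unknown. Totals ran from 8408390 to 11969093 in Ctrl and from 6963957 to 7737193 in KO. Between 11982 and 14455 genes stood above 1 normalised count in Ctrl and between 14978 and 15566 in KO, so detection did not overlap between the groups (exact two-sided permutation p = 0.1, the smallest that 3 against 3 libraries allow). Mitochondrial rRNA took 23.9 to 28.9% of the Ctrl totals and 16.9 to 23.6% of the KO totals, again without overlap. The part of these library differences in the results below was not tested. Replicates 1 and 2 of each genotype carried Xist RNA and replicate 3 of each carried Y-linked RNA, so the sexes were balanced.

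Ctrl replicate 2, with 11982 genes above 1, stood apart from the other libraries. It held the highest level of the 6 of several lymphoid genes. Tcf7, a T lineage transcription factor, was at 2462 normalised counts there and at 276 and 444 in Ctrl replicates 1 and 3. Il7r, the interleukin-7 receptor chain, was at 1146 against 41.0 and 236, and Gata3 was at 1136 against 11.7 and 216. Cd74, the MHC class II invariant chain, was at 1048 against 6.81 and 8.26. The other Ctrl libraries also held genes of single cell types. Ctrl replicate 3 had the eosinophil granule genes Prg2, Epx and Ear1 at 711, 255 and 128, where Ctrl replicates 1 and 2 had at most 0.256 of each, and Prg2 was also at 66.9 in KO replicate 2. Ctrl replicate 1 had the T cell receptor gene Cd3e at 41.7, against at most 0.117 in the other 5 libraries. In bulk samples, fewer cells of a type and less RNA per cell cannot be told apart.

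**Figure D1:**
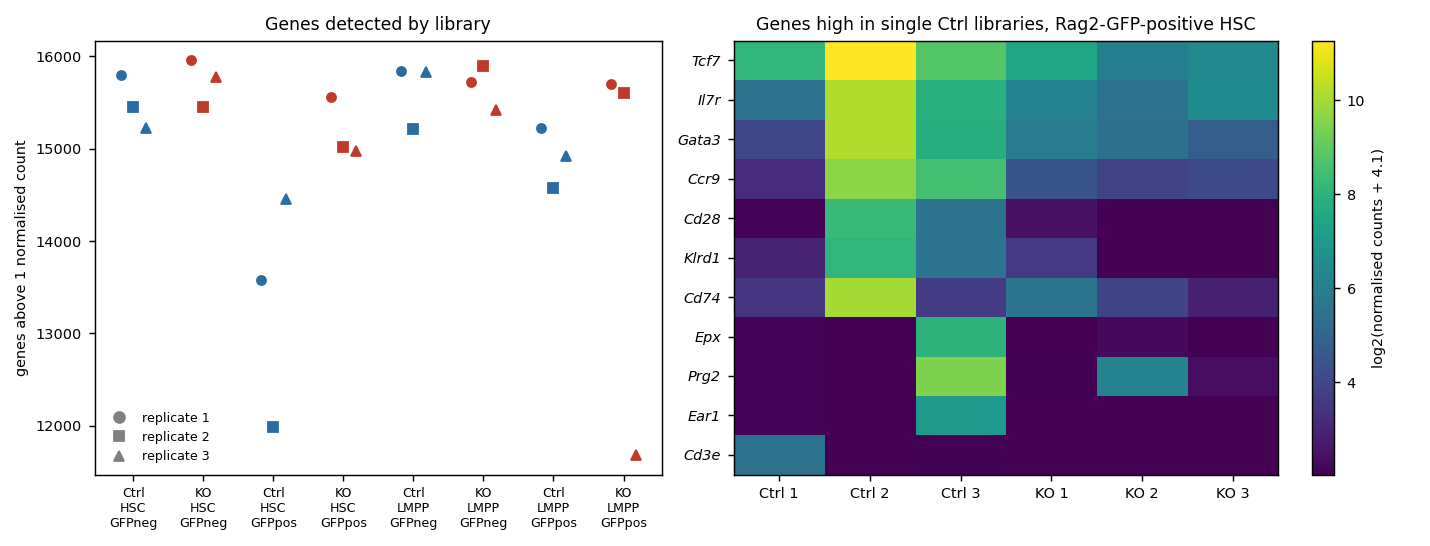
Left, number of genes above 1 normalised count in each of the 24 libraries (the axis does not start at 0); right, level of 11 lineage genes in the 6 Rag2-GFP-positive HSC libraries as log2(normalised counts + 4.1). Ctrl replicate 2 (11982 genes) lay lowest of the 6, and it was highest of the 6 for Tcf7, Il7r and Gata3.

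Tal1 (ENSMUSG00000028717, chromosome 4, 115056426 to 115071755, plus strand, GRCm38/mm10) was read first. It stood at 393, 815 and 326 normalised counts in Ctrl replicates 1 to 3 and at 308, 281 and 140 in KO. Every KO library lay below every Ctrl library, though KO replicate 1 was close to Ctrl replicate 3. The log2 difference was -1.02 (95% interval -2.46 to 0.43) and did not pass limma's test over all genes (adjusted p = 0.513). An exact permutation test over the 6 libraries (two-sided) gave p = 0.1. The level sums all reads of the gene, so it does not measure how much of the floxed part was left. Differences are given throughout as KO minus Ctrl on the scale log2(normalised counts + 4.1), which understates those of genes near 0.

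Rag2 (chromosome 2, 101624718 to 101632529) read the reporter gate. It was at 620, 344 and 405 in Ctrl and at 316, 429 and 376 in KO, and the groups overlapped (log2 difference -0.25, 95% interval -1.33 to 0.82, limma adjusted p = 0.873). Kit, a gene of the LSK gate, was at 3858 to 6626 in Ctrl and 3855 to 4672 in KO. Flt3, which encodes CD135, was at 1414 to 3256 in Ctrl and 747 to 2189 in KO HSC, against 5806 to 6248 in Ctrl LMPP of the CD135-positive, GFP-positive gate. Slamf1, the stem cell marker CD150, was at 22.6 to 47.4 in Ctrl and 47.0 to 71.2 in KO, against 105 to 136 in GFP-negative Ctrl HSC. Procr, the endothelial protein C receptor of stem cells, was at 0.0318 and 0.243 in 2 Ctrl libraries and at 148 in the other, and reached 47.1 in KO. Slamf1 was thus lower in these libraries than in GFP-negative Ctrl HSC, and Procr was near 0 in most of them.

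A total of 70 of 16215 genes passed (adjusted p under 0.05 in limma, 0.432% of genes tested). Of these, 51 rose (0.315%) and 19 fell (0.117%), and the groups did not overlap for any of the 70. Without overlap lay 2319 genes in all (14.3%), 1517 higher in KO (9.36%) and 802 lower (4.95%). The balance of rises and falls depended on scaling. The median log2 difference of all genes was 0.19, and with every library shifted to the same median 28 genes rose and 24 fell. With quantile normalisation 31 rose and 30 fell. All 70 kept their sign in each setting tried. Among the rises, 14 had every Ctrl library under 5 normalised counts, a state shared by 1897 of all genes tested. Among the falls, 3 had every KO library under 5, as did 983 of all genes.

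The number of genes passing changed with the libraries left out, for reasons that were not tested. Ctrl replicate 2 was the lowest Ctrl library for 42 of the 51 rises and was under 1 normalised count for 26 of them, as it was for 4385 of all genes tested. It was the highest Ctrl library for 13 of the 19 falls. Without it 26 genes passed (0.16%), 15 higher and 11 lower in KO, and 14 of them were among the 70. Without Ctrl replicate 1 or 3, 352 and 706 genes passed. Without KO replicate 1, 2 or 3, 37, 8 and 10 genes passed, with 28, 8 and 8 of the 70 among them. KO LMPP GFP-positive replicate 3 also had few genes detected. Without both it and Ctrl replicate 2, 310 genes passed, with 61 of the 70 among them. From the 6 libraries alone no gene passed in limma (1224 at an unadjusted p under 0.05), so the calls rest on a spread estimated over all 8 groups.

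**Figure D2:**
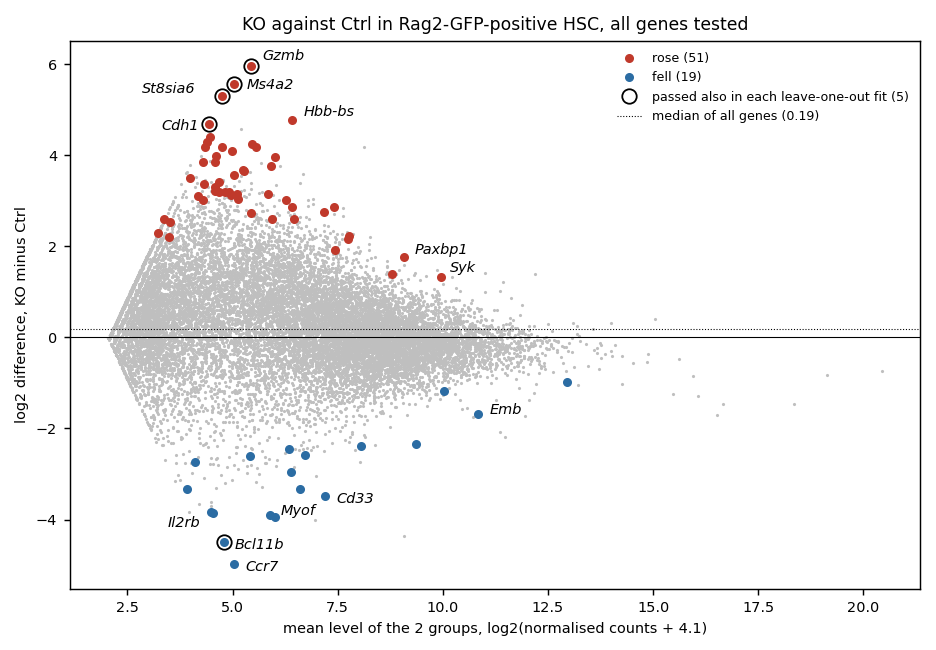
Log2 difference (KO minus Ctrl) against the mean log2(normalised counts + 4.1) of the 2 groups, 1 point for each of 16215 genes. Red points rose (51), blue points fell (19), circles mark the 5 genes that also passed in each fit that left out 1 library, and the dotted line is the median of all genes (0.19).

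Bcl11b, Cdh1, Gzmb, St8sia6 and Ms4a2 passed in each of the 6 fits that left out 1 library of the comparison. With library weights Ms4a2 did not pass (limma adjusted p = 0.107), and none of the 5 passed from the 6 libraries alone. Bcl11b, which encodes a zinc finger factor of T lineage commitment, was the 1 fall among them. It lies on chromosome 12, 107910403 to 108003602, minus strand (GRCm38/mm10). Its levels were 79.3, 186 and 136 normalised counts in Ctrl and 1.38, 4.68 and 0.00105 in KO, means of 134 ± 53.2 and 2.02 ± 2.41 (SD, n = 3). All Ctrl libraries were more than an order of magnitude above all KO libraries. The log2 difference was -4.49 ± 0.43 (SE, limma adjusted p = 2.17e-06) and was -4.22 without Ctrl replicate 2. Of all 24 libraries only these 3 Ctrl libraries held Bcl11b at 1 ppm or more, so it entered the test through the group where it was high. Like the T lineage factors Tcf7 and Gata3, Bcl11b was highest in Ctrl replicate 2. Bcl11b and Tcf7 lay above every KO library in all 3 Ctrl libraries, while Gata3 overlapped between the groups.

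Gzmb, which encodes granzyme B, a serine protease of cytotoxic lymphocytes that some mast cells and basophils also make, had the largest rise by log2 difference. It lies on chromosome 14, 56258838 to 56262260, minus strand. Its levels were 5.19, 0.0321 and 0.246 in Ctrl and 317, 542 and 230 in KO (363 ± 161, SD, n = 3), a log2 difference of 5.97 ± 0.72 (SE, limma adjusted p = 5.23e-05). Ms4a2, the beta chain of the high-affinity IgE receptor of mast cells and basophils, lies on chromosome 19, 11615523 to 11623719, minus strand. It was at 1.91, 0.0318 and 0.244 in Ctrl and at 242, 330 and 136 in KO (236 ± 97.2), a log2 difference of 5.57 ± 0.90 (limma adjusted p = 0.00494). Both genes were near 0 in every Ctrl library and above 100 in every KO library.

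Cdh1, which encodes E-cadherin, an epithelial adhesion molecule also found on early erythroid and on basophil and mast cell progenitors, lies on chromosome 8, 106603351 to 106670246, plus strand. It was at 0.23, 0.0293 and 0.218 in Ctrl and at 67.3, 188 and 91.2 in KO (115 ± 63.8, SD, n = 3), a log2 difference of 4.68 ± 0.53 (SE, limma adjusted p = 2.56e-05). St8sia6, a sialyltransferase, lies on chromosome 2, 13651021 to 13794064, minus strand. It was at 0.259, 0.032 and 0.245 in Ctrl and at 120, 281 and 129 in KO (177 ± 90.4), a log2 difference of 5.29 ± 0.69 (limma adjusted p = 0.000194). Neither gene reached 1 normalised count in a Ctrl library.

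**Figure D3:**
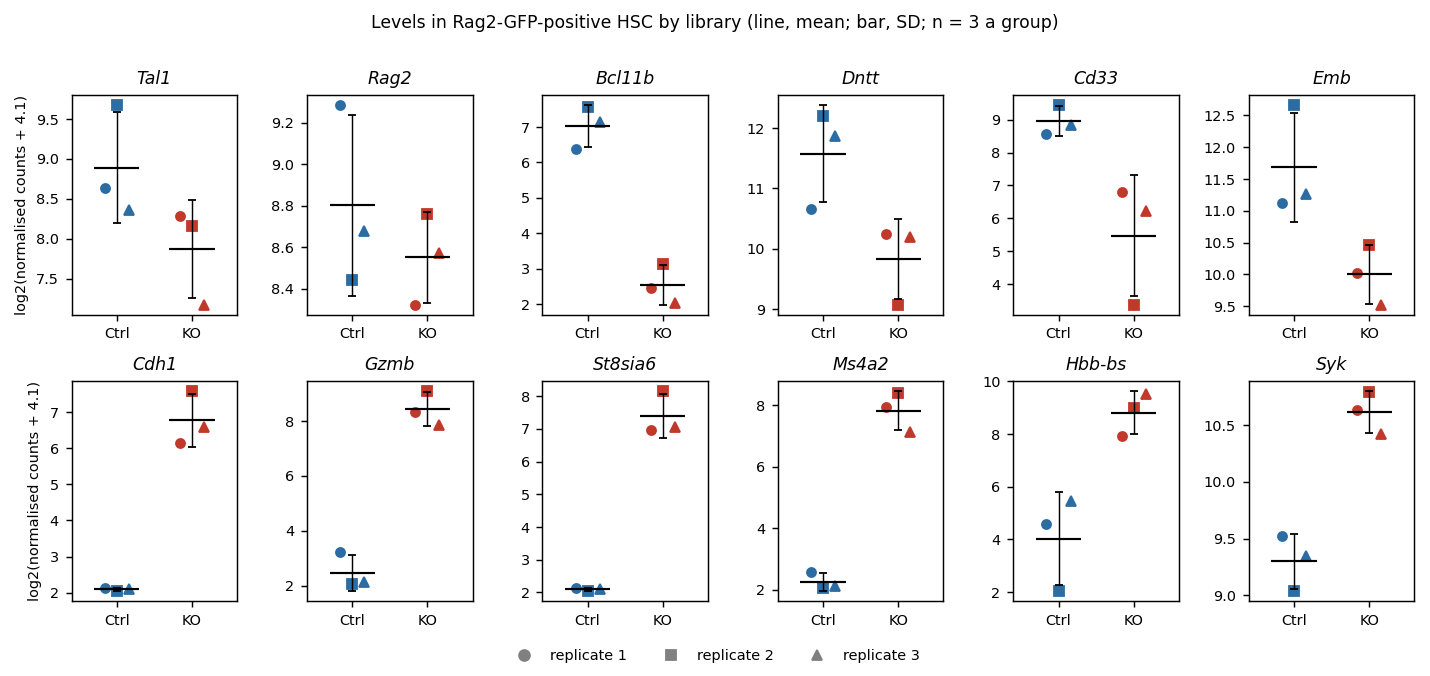
Levels of 12 genes in the 6 libraries as log2(normalised counts + 4.1), blue for Ctrl and red for KO, with a symbol for each replicate number, the mean as a line and the SD as a bar (n = 3); each panel has its own axis. Bcl11b, Cdh1, Gzmb, St8sia6 and Ms4a2 show gaps between the groups far wider than the spread within them, while the groups overlap for Rag2.

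Promoter windows from RefSeq (GRCm38.p6, 250 bases before to 50 after the start) were available for 33 of the 51 rises and 12 of the 19 falls. Those of the fall Bcl11b and the rises Gzmb and Ms4a2 are shown, because TAL1 complexes bind E-boxes and GATA sites. The windows are chr12:108003365-108003664, chr14:56262285-56262584 and chr19:11623670-11623969, each on the minus strand and read 5′ to 3′. Capitals mark AGATAA (the GATA motif), CAGATG or CAGCTG (E-boxes), on either strand.
Bcl11b: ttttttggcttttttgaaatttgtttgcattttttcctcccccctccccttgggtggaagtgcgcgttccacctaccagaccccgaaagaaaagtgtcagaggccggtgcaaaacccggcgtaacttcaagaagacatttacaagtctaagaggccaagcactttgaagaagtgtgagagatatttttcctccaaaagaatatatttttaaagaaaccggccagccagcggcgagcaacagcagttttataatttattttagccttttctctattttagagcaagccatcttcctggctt
Gzmb: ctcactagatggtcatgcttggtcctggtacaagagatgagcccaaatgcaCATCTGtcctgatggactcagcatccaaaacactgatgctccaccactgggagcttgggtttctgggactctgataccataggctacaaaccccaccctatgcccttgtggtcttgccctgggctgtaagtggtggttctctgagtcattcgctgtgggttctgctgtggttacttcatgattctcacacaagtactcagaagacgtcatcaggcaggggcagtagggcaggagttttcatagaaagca
Ms4a2: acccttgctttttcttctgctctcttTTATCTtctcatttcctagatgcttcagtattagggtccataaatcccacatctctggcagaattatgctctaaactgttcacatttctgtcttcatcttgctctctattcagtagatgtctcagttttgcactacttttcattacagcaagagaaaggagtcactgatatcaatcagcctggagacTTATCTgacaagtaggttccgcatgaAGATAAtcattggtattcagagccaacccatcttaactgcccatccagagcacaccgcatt
The Ms4a2 window held AGATAA 3 times, with first bases at -224, -37 and -11 from the start. The Gzmb window held CAGATG once, on the opposite strand at -199, and the Bcl11b window held none of these letters. Nor did the window of the rise St8sia6, which is not printed. Across the rises AGATAA was in 5 of 33 windows (15.152%), against 3 of 12 (25.0%) for the falls and 6.866% of the 11214 genes of the table with a window. CAGATG was in 5 of 33 and 1 of 12, against 12.11% of all, and CAGCTG was in 5 of 33 and 0 of 12, against 15.213%. CTG followed by GATA after 6 to 11 bases, on either strand and not in capitals above, was in 3 of 33 (9.091%) and 1 of 12, against 9.247% of all, and the Gzmb window held it at -137. A match is a description of the letters in the window.

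Beside Bcl11b, the lymphoid transcription factors were mostly lower in KO without passing. Of 22 listed, 19 were tested, 1 fell and none rose, and 15 of the 19 had a negative difference (median -0.56, against 0.19 for all genes). The median stayed negative under both rescalings (-0.88 with libraries shifted to the same median, -0.50 with quantile normalisation) and was -0.49 without Ctrl replicate 2, where 12 of 19 were negative. Notch1, the receptor that starts the T lineage programme, was at 1651, 1998 and 1445 in Ctrl and 777, 796 and 1087 in KO. Its groups did not overlap, but the log2 difference of -0.94 did not pass (limma adjusted p = 0.13). Tcf7 was at 276, 2462 and 444 in Ctrl and 176, 61.3 and 83.2 in KO, a log2 difference of -2.75 that did not pass (adjusted p = 0.211).

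Among genes of recombination and early lymphoid cells, 18 of 24 listed were tested and none passed, with a median log2 difference of -0.50. Dntt, the terminal transferase that adds nucleotides at receptor gene joins, was at 1619, 4692 and 3740 in Ctrl and 1207, 535 and 1167 in KO. All KO libraries lay below all Ctrl libraries (log2 difference -1.74, limma adjusted p = 0.0739). Rag1, the partner of RAG2, overlapped between groups, at 13.4, 20.5 and 49.6 in Ctrl and 44.1, 64.5 and 48.1 in KO. Il7r overlapped as well, at 65.6, 42.1 and 87.2 in KO.

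Of 17 lymphoid cytokine and chemokine receptors tested, Ccr7 and Il2rb fell and none rose. The median of these receptors was 0.15, against 0.19 for all genes, and 9 of the 17 had a positive difference. Ccr7, the receptor that guides lymphocytes to lymph nodes and progenitors to the thymus, was at 471, 285 and 41.6 in Ctrl and at 0.104, 3.88 and 2.01 in KO (log2 difference -4.97, limma adjusted p = 0.0198). The beta chain of the interleukin-2 and interleukin-15 receptors, Il2rb, was at 85.7, 225 and 25.4 in Ctrl and at 6.41, 0.704 and 0.00106 in KO (log2 difference -3.84, adjusted p = 0.0359). Both were near 0 in most KO libraries, and both had a wide spread within Ctrl. Neither passed without Ctrl replicate 2, where the log2 differences were -4.64 and -3.12 (adjusted p = 0.062 and 0.128). In the T lineage list 18 of 26 were tested, and Tcrg-C2, a constant segment of the gamma chain locus, fell by 2.61 on the log2 scale (adjusted p = 0.037). It was at 120, 239 and 34.7 in Ctrl and 22.6, 3.88 and 20.1 in KO, and it did not pass without Ctrl replicate 2 (-2.01, adjusted p = 0.137). The list's median was -0.67, and its defining gene Cd3e was too low to be tested, at 41.7, 0.0176 and 0.117 in Ctrl and 0.0557 or less in KO.

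The mast cell, basophil and eosinophil list had 26 of 32 genes tested, of which Gzmb and Ms4a2 rose and none fell. Of the 26, 7 lay higher in KO without overlap and none lower, beside 9.36% and 4.95% of all genes. The median was 0.73, and 0.27 without Ctrl replicate 2, against 0.09 for all genes there. Il1rl1, the interleukin-33 receptor of these cells, was at 1.91, 0.0322 and 13.1 in Ctrl and 171, 159 and 196 in KO. It lay well apart between groups, but its log2 difference of 4.57 did not pass (limma adjusted p = 0.0723). The mast cell chymase Cma1 was at most 0.26 in Ctrl and at 8.94, 78.0 and 32.1 in KO (log2 difference 2.98, adjusted p = 0.207). Mcpt8, a basophil protease, overlapped, at 133, 0.0307 and 39.8 in Ctrl and 141, 139 and 35.1 in KO. Of the 26, 17 had a positive and 9 a negative difference. Fcer1a, the alpha chain of the IgE receptor, was at 3.56, 0.0294 and 0.219 in Ctrl and at most 0.0971 in KO (-0.32, adjusted p = 0.900). The mast cell proteases Tpsb2 and Mcpt2 were at most 2.64 and 2.01 in KO. The list's summed level overlapped between groups, at 10352 to 11589 in Ctrl and 8501 to 13594 in KO.

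Of 21 listed genes of mature red cells, 17 were tested, and Hbb-bs, Hba-a1, Slc4a1 and Hemgn rose, while none fell. Of the 17, 9 lay higher in KO without overlap, beside 9.36% of all genes. The list's median was 2.10, and was positive under both rescalings (1.79 and 1.29) and without Ctrl replicate 2 (2.04). Hbb-bs, an adult beta globin, was at 19.8, 0.0324 and 40.2 in Ctrl and 238, 501 and 736 in KO (log2 difference 4.78 ± 0.84, SE, limma adjusted p = 0.0113). The beta globin Hbb-bt overlapped between groups, at 16.6, 242 and 24.2 in Ctrl and 95.8, 312 and 359 in KO (2.10, adjusted p = 0.198). Ctrl replicate 2 thus held Hbb-bt but almost no Hbb-bs, and how reads were divided between these genes was not tested. Slc4a1, the band 3 anion exchanger of the red cell membrane, was at 0.261, 0.0322 and 53.0 in Ctrl and 81.9, 392.3 and 202 in KO (4.25, adjusted p = 0.0219). Hemgn, a nuclear protein of erythroid progenitors, was at 52.4, 0.0322 and 25.8 in Ctrl and 123, 181 and 203 in KO (3.15, adjusted p = 0.0234).

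The alpha globin Hba-a1 was at 0.259, 0.032 and 9.87 in Ctrl and 83.1, 127 and 124 in KO (log2 difference 4.17, limma adjusted p = 0.0106). Its near-identical copy Hba-a2 was at 14.98, 0.0321 and 6.67 in Ctrl and 64.3, 136 and 138 in KO (3.55, adjusted p = 0.0596), and how reads were divided between the copies is uncertain. Of the 4 rises, only Hba-a1 passed without Ctrl replicate 2 (3.87, adjusted p = 0.0424). Without both Ctrl replicate 2 and KO LMPP GFP-positive replicate 3, 6 genes of the mature red cell list rose. Alas2, the erythroid heme synthesis enzyme, was at 3.56, 0.0317 and 19.4 in Ctrl and 36.6, 63.7 and 76.2 in KO, and did not pass (2.74, adjusted p = 0.141).

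Of 26 transcription factors and early progenitor genes of the erythroid branch, Zfpm1 rose, the cofactor FOG1 of GATA1. It was at 11.7, 7.58 and 81.6 in Ctrl and 99.5, 170 and 191 in KO (log2 difference 2.60, limma adjusted p = 0.0371), with Ctrl replicate 3 just below KO replicate 1, and did not pass without Ctrl replicate 2 (2.05, adjusted p = 0.123). Gata1 was at most 0.251 in Ctrl and at 26.5, 51.0 and 7.02 in KO (2.64, adjusted p = 0.129). The list's median was 0.34, and -0.19 with quantile normalisation. None of 23 megakaryocyte and platelet genes passed, and their median of 0.35 became -0.02 with quantile normalisation.

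**Figure D4:**
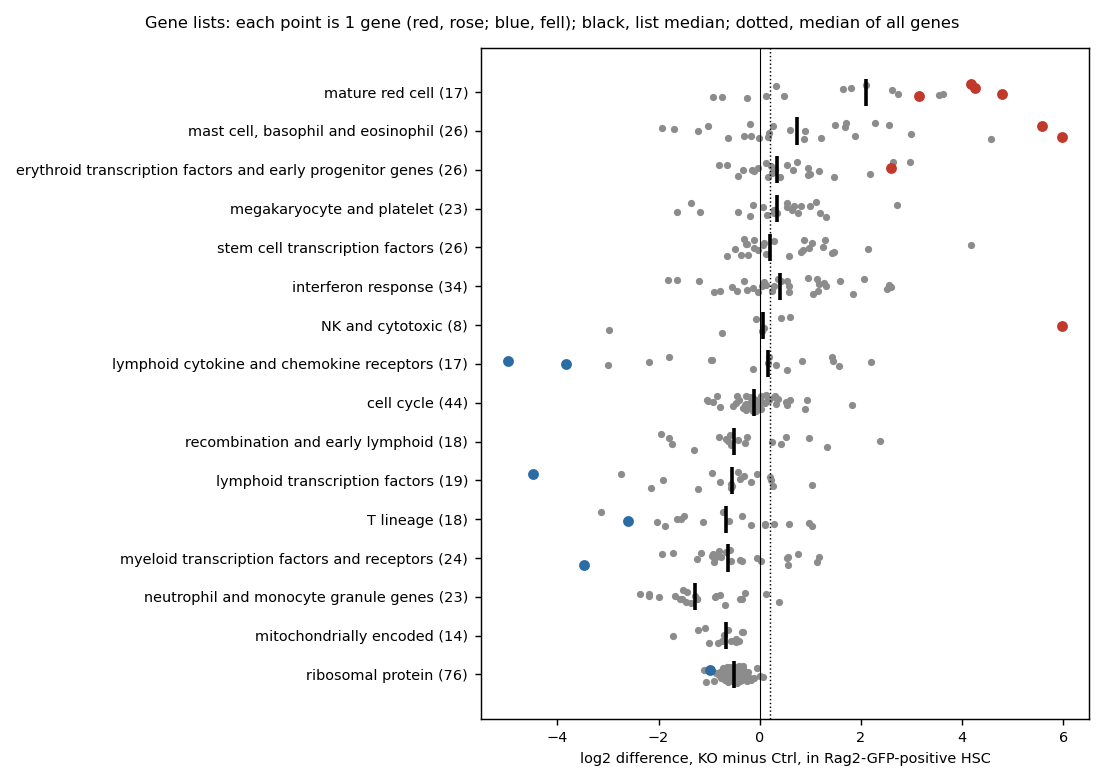
Log2 difference (KO minus Ctrl) of each tested member of 16 gene lists, with the number tested in parentheses. Red points rose, blue points fell, black bars are list medians and the dotted line is the median of all genes (0.19); the mature red cell median is 2.10, that of neutrophil and monocyte granule genes -1.28.

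In the myeloid branch Cd33 fell and no other of 24 transcription factors and receptors passed. Cd33, a sialic acid-binding receptor of myeloid progenitors, was at 376, 695 and 451 in Ctrl and 107, 6.28 and 71.2 in KO (log2 difference -3.48 ± 0.65, SE, limma adjusted p = 0.0172), and it missed the threshold without Ctrl replicate 2 (-3.23, adjusted p = 0.057). None of 23 neutrophil and monocyte granule genes passed, and 21 of them had a negative difference. Their median was -1.28, with -1.60 and -1.37 under the rescalings and -1.71 without Ctrl replicate 2. Their summed level was 61441 to 135017 in Ctrl and 17484 to 60746 in KO, without overlap. These sums were not scaled to the library totals, which were higher in every Ctrl library. The part of the totals in this gap was not tested. Of the 23 genes, 5 lay lower in KO without overlap, beside 4.95% of all genes. Mpo, the myeloperoxidase of primary granules, was at 106766, 51068 and 62618 in Ctrl and 38947, 48494 and 13470 in KO (-1.25, adjusted p = 0.227). Ms4a3, a marker of granulocyte and monocyte progenitors, was at 423, 613 and 828 in Ctrl and 160, 205 and 63.2 in KO (-2.19, adjusted p = 0.12). KO replicate 3 was the lowest library for both genes.

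None of 18 genes of the TAL1 complex and of the E and Id proteins passed. Of these, 3 lay higher in KO without overlap and 6 lower, beside 9.36% and 4.95% of all genes. Gata2, a GATA factor of stem cells and mast cell progenitors that works with TAL1, was at 238, 0.0324 and 279 in Ctrl and 1302, 1509 and 837 in KO. The groups were well apart, and the log2 difference of 4.17 (95% interval 1.83 to 6.51) did not pass (limma adjusted p = 0.097). Without Ctrl replicate 2 it was 2.18 (adjusted p = 0.369). Lyl1, the closest paralogue of TAL1, was at 736, 1698 and 1597 in Ctrl and 722, 667 and 465 in KO, with Ctrl replicate 1 next to KO replicate 1 (-1.05, adjusted p = 0.143). The corepressor ETO2 of the complex, Cbfa2t3, was at 778, 2462 and 1187 in Ctrl and 625, 440 and 465 in KO (-1.38, adjusted p = 0.0682). Id2, an inhibitor of E proteins, was at 40.7, 139 and 82.4 in Ctrl and 29.0, 11.9 and 8.02 in KO (-2.15, adjusted p = 0.234).

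Stem cell genes did not pass as groups of transcription factors (0 of 26) or of surface and quiescence genes (0 of 29). The median of the transcription factors was 0.21, close to that of all genes, and turned to -0.16 without Ctrl replicate 2 and to -0.11 with libraries shifted to the same median. Hlf, a stem cell transcription factor, was at 1878, 338 and 1355 in Ctrl and 1789, 2389 and 1713 in KO, and the low Ctrl value was that of replicate 2 (log2 difference 1.02, limma adjusted p = 0.224). Cd48, a surface protein that stem cells lack and multipotent progenitors carry, was at 573, 694 and 640 in Ctrl and 1252, 913 and 1449 in KO, without overlap (0.90, adjusted p = 0.178).

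Outside these lists, Fdxr, the mitochondrial ferredoxin reductase of steroid and iron-sulphur cluster synthesis, rose from 50.8, 3.27 and 6.68 in Ctrl to 141, 399 and 182 in KO. Its log2 difference was 3.76 (limma adjusted p = 0.0106), and 3.19 without Ctrl replicate 2 (adjusted p = 0.0456). Syde1, a GTPase-activating protein, was at 10.1, 0.0318 and 3.47 in Ctrl and 106, 89.2 and 216 in KO (4.10, adjusted p = 0.0153). Fgf3, a fibroblast growth factor, was at 0.257, 0.0318 and 70.3 in Ctrl and 195, 202 and 190 in KO (4.18, adjusted p = 0.0153). Neither passed without Ctrl replicate 2, where Syde1 was at 3.66 (adjusted p = 0.0514) and Fgf3 at 3.47 (adjusted p = 0.0613) on the log2 scale. KO levels were even for Fgf3, while Ctrl replicate 3 stood apart within Ctrl.

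Some rises were of genes well expressed in Ctrl, chosen here after their values were seen. Syk, the kinase that relays Fc and B cell receptor signals, was at 730, 521 and 646 in Ctrl and 1589, 1768 and 1368 in KO. Both groups were tight and far apart, with a log2 difference of 1.32 (limma adjusted p = 0.0198), which was 1.18 without Ctrl replicate 2 (adjusted p = 0.062). Paxbp1 was at 352, 139 and 495 in Ctrl and 847, 919 and 1247 in KO (1.76, adjusted p = 0.0234). Cdk17, a cyclin-dependent kinase, was at 287, 276 and 250.7 in Ctrl and 524, 812 and 883 in KO (1.40, adjusted p = 0.0315). Neither passed without Ctrl replicate 2, where the log2 differences of Paxbp1 and Cdk17 were 1.24 and 1.41 (adjusted p = 0.0839 and 0.057). In all, 5 rises had a Ctrl mean of at least 100 normalised counts, and 5 falls had a KO mean of at least 100.

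Among the falls, Myof, a membrane repair protein of the ferlin family, was at 248, 513 and 88.0 in Ctrl and 22.8, 1.505 and 20.1 in KO (log2 difference -3.90, limma adjusted p = 0.0106), and passed without Ctrl replicate 2 as well (-3.31, adjusted p = 0.0489). Uaca, a cytoskeletal adaptor, was at 151, 22.7 and 160 in Ctrl and 0.105, 6.27 and 1.004 in KO (-3.86, adjusted p = 0.0234). Its difference was larger without Ctrl replicate 2 (-4.72, adjusted p = 0.00657). Igf2r, the receptor that clears insulin-like growth factor 2, was at 168, 861 and 190 in Ctrl and 60.5, 35.8 and 7.02 in KO (-3.33, adjusted p = 0.0315). Emb, a cell adhesion glycoprotein, was at 2221, 6499 and 2454 in Ctrl and 1039, 1401 and 732 in KO (-1.68, adjusted p = 0.0359). Without Ctrl replicate 2 neither passed, with log2 differences of -2.58 for Igf2r and -1.19 for Emb (adjusted p = 0.123 and 0.134).

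Ribosomal protein genes were lower in KO almost throughout. Of 76 tested, 1 fell and none rose, and 75 had a negative difference. Of the 76, 36 lay lower in KO without overlap, beside 4.95% of all genes. Their median was -0.52 against 0.19 for all genes, and their sum was 328025 to 367511 in Ctrl and 234391 to 250672 in KO. The median was -0.83 with libraries shifted to the same median and -0.22 with quantile normalisation, where 11 of 76 were positive. None passed with quantile normalisation or without Ctrl replicate 2, while 5 fell without both Ctrl replicate 2 and KO LMPP GFP-positive replicate 3. Totals of normalised counts were higher in Ctrl in all libraries, and their part in this difference was not tested.

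Mitochondrially encoded genes were negative in 14 of 14, with none passing and a median of -0.66. With quantile normalisation their median was -0.29, with 2 positive and 10 negative. Interferon response genes had a median of 0.39 and none of 34 passed, with 5 higher in KO without overlap, beside 9.36% of all genes. Their median was 0.14 without Ctrl replicate 2, against 0.09 for all genes. With libraries shifted to the same median it was 0.08, against -0.12 for all genes. Oas3, an antiviral 2'-5' oligoadenylate synthetase, was at 188, 144 and 149 in Ctrl and 549, 278 and 418 in KO (log2 difference 1.31, limma adjusted p = 0.097). None of 44 cell cycle genes passed, and their median of -0.12 was 0.09 with quantile normalisation. Of 9 stroma and endothelium genes tested none passed.

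Of the mature red cell list 4 of 17 genes rose and of the mast cell list 2 of 26, beside 0.315% of all genes. Gzmb, counted among these 2, was also the 1 rise among 8 cytotoxic and NK cell genes tested. None of 10 mature B and plasma cell genes passed. None of 18 dendritic cell and antigen presentation genes passed, though their summed level lay lower in KO without overlap, at 5651 to 7863 in Ctrl and 2994 to 4862 in KO. These sums, too, were not scaled to the library totals, which were higher in every Ctrl library. Of 12 Notch pathway genes none passed, and Notch1 was the 1 with a negative difference. In the adhesion and homing list, which was drawn up with earlier results known, Cdh1 and St8sia6 rose and Ccr7 fell among 24 tested. None of 18 myeloid and erythroid cytokine receptors passed. The nearest was Il6st, the shared signalling chain of the interleukin-6 family, at 606, 1259 and 1182 in Ctrl and 482, 288 and 298 in KO (log2 difference -1.47, limma adjusted p = 0.0662). Its groups did not overlap. None of 20 immediate early and stress genes or of 10 genes of the sort gate passed.

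Without Ctrl replicate 2, 12 genes passed that had not passed with it. Sdc4, a heparan sulphate proteoglycan, was at 36.1 and 116 in the remaining Ctrl libraries and at most 1.501 in KO (log2 difference -3.92, limma adjusted p = 0.038). Esam, an adhesion molecule of stem cells and endothelium, was at 166 and 46.2 in these Ctrl libraries and at most 1.38 in KO (-4.25, adjusted p = 0.0103), while Ctrl replicate 2 had it at 0.031. Acvr2a, an activin receptor, was at 3.55 and 22.6 in Ctrl and 123, 198 and 72.2 in KO (3.13, adjusted p = 0.038), but at 206 in Ctrl replicate 2. Pdzk1ip1, a membrane protein encoded beside Tal1, was at 0.26 and 32.2 in Ctrl and 113, 202 and 219 in KO (3.80, adjusted p = 0.0489), but at 321 in Ctrl replicate 2.

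The genotype difference was then compared with that in 2 other gates. Within a genotype, libraries with the same replicate number carry the same number in their descriptions across gates. Whether that number stands for an animal is not stated, and the tests took the libraries as independent. With that number as a random block 78 genes passed for KO against Ctrl, 1 for the interaction with GFP and 5 for the interaction with population. In GFP-negative HSC 26 genes passed (0.16%), and in GFP-positive LMPP 7 passed (0.0432%). Among them, 4 genes passed both here and in GFP-negative HSC, including Gzmb, Hba-a1 and Hbb-bs, 5.71% of the 70 and 15.4% of the 26. Hba-a1, Hbb-bs and Slc4a1 passed both here and in GFP-positive LMPP, 4.29% of the 70 and 42.9% of the 7. Gzmb had log2 differences of 5.97 here and 6.0 in GFP-negative HSC, where Ctrl was at 2.83 to 9.98.

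In the test of the interaction with GFP in HSC 1 gene passed (0.00617%), Bcl11b. It was at most 0.367 in the 6 GFP-negative HSC libraries, near 0 in both genotypes, so the interaction of -4.52 on the log2 scale (limma adjusted p = 0.00149) restates the difference in GFP-positive HSC. In the test against GFP-positive LMPP 5 genes passed (0.0308%), Bcl11b, Cdh1, Gzmb, St8sia6 and Syde1. For Bcl11b the interaction was -4.53 (adjusted p = 0.000727), and it too restates the difference in GFP-positive HSC, as its level was at most 0.422 in the 6 LMPP libraries. For Gzmb it was 5.92 (adjusted p = 0.0164), with at most 0.491 in the GFP-positive LMPP libraries, near 0 in both genotypes. St8sia6 showed the largest interaction, 7.37 (adjusted p = 0.000727), and was lower in KO LMPP (0.127, 7.43 and 0.488) than in Ctrl LMPP (8.78, 25.1 and 40.3). KO LMPP replicate 3 had few genes detected (11684 above 1), and 5 genes again passed without it. Single libraries moved these counts. Against GFP-negative HSC, 19 genes passed without Ctrl replicate 3, 4 without Ctrl replicate 1, 2 without Ctrl replicate 2, and 2 and 5 without KO replicates 1 and 3 of the GFP-negative gate. Against GFP-positive LMPP, 124 passed without Ctrl replicate 3 and 10 without Ctrl replicate 1. The count was 3 without Ctrl replicate 2, without KO replicate 2 or without any 1 of the Ctrl LMPP libraries, and 8 without KO LMPP replicate 1.

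**Figure D5:**
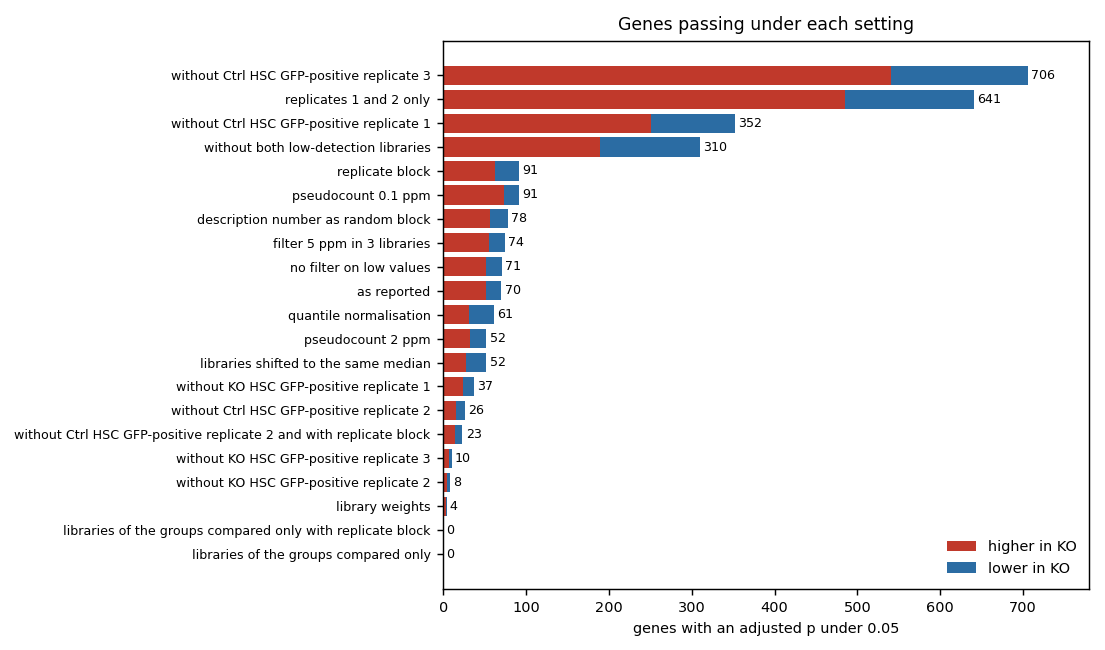
Number of genes with an adjusted p under 0.05 in limma for KO against Ctrl in Rag2-GFP-positive HSC, for the analysis as reported (70) and under each alternative, red for higher and blue for lower in KO. Counts range from 0 with the 6 libraries alone to 706 without Ctrl replicate 3.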

How the data were processed

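RNA of sorted mouse bone marrow cells was sequenced from 24 libraries in 8 groups of n = 3, mapped by their labels. The submitters' processing notes name Trimmomatic 0.33, HTSeq 0.6.1, edgeR and the build mm10; no aligner is given in the sources. As deposited, the signal values are counts that the authors normalised, by a function nothing here states. Of the values above 0, only 0.594% were whole to within 0.001. Reads could thus not be recovered, and a count model was not used. Symbols and coordinates came from GENCODE M21 for 16985 of 17149 identifiers.

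Genes with at least 1 ppm of the library total in at least 3 libraries were kept. A linear model of 8 group means was fitted to log2(value + 4.1) in all 24 libraries with limma 3.58.1 (R 4.3.3, empirical Bayes with trend). The pseudocount of 4.1 is 0.5 ppm of the mean total. Adjustment was by Benjamini-Hochberg, and a gene rose or fell at an adjusted p under 0.05. Genes named were the 15 largest rises and falls that passed without overlap and with at least 5 ppm, a fixed set around Tal1, the passing members and the 4 smallest p-values of each of 27 lists, up to 8 genes for each interaction, and up to 10 rises and falls without Ctrl replicate 2. Predicted genes and receptor segments were left out, and some further list members are given by value. The comparison, the lists and the tests were chosen with earlier results of these data known. Alternatives covered the pseudocount, filter, scaling, blocks, library weights and libraries left out. Some genes that passed are not reported here.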

Additional observations from a re-analysis of the deposited data

Results flagged for a closer look

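A total of 5 genes passed limma's interaction test over all genes between the genotype difference in GFP-positive HSC and that in another gate. For Bcl11b the interaction with GFP-negative HSC was -4.52 on the log2 scale (adjusted p = 0.00149) and that with GFP-positive LMPP was -4.53 (adjusted p = 0.000727). With GFP-positive LMPP it was 4.71 for Cdh1 (adjusted p = 0.00717), 5.92 for Gzmb (adjusted p = 0.0164), 7.37 for St8sia6 (adjusted p = 0.000727) and 6.0 for Syde1 (adjusted p = 0.0247). Bcl11b was at most 0.367 normalised counts in the GFP-negative HSC libraries and at most 0.422 in the GFP-positive LMPP libraries, and Cdh1 and Gzmb were under 1 in all GFP-positive LMPP libraries. For these genes the interaction there restates the difference within GFP-positive HSC and shows no separate effect. In GFP-negative HSC of control mice St8sia6 was at 116, 76.0 and 73.9 and Ms4a2 at 52.1, 135 and 17.0, whereas Ctrl GFP-positive HSC had at most 0.259 and 1.91 of them. In KO GFP-negative HSC St8sia6 was at 371 to 846 and Ms4a2 at 163 to 438, above every Ctrl library of that gate. Their log2 differences there, 2.60 and 2.54, did not pass (limma adjusted p = 0.212 and 0.851).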

How the results depend on the processing

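All 70 genes kept their sign in every setting in which they were tested. The number of genes passing for KO against Ctrl was 70, and leaving out 1 library gave 8 (without KO replicate 2) to 706 (without Ctrl replicate 3). It was 310 without both libraries of low detection (Ctrl replicate 2 and KO LMPP GFP-positive replicate 3), 4 with library weights, and 0 from the 6 libraries alone, with or without a replicate block. Those 2 fits in limma had 1224 genes without and 1048 with the block at an unadjusted p under 0.05. A further 2 settings were chosen after seeing the data: replicates 1 and 2 only gave 641, and leaving out Ctrl replicate 2 with a replicate block gave 23. With pseudocounts of 0.1 and 2 ppm the count was 91 and 52. The interaction with GFP (1 gene) gave 1 to 19 with 1 library left out. It was 0 with a 5 ppm filter, a pseudocount of 0.1 ppm, library weights or only the 12 libraries compared (with or without the block), 2 with a pseudocount of 2 ppm and 3 without both low-detection libraries. The interaction with population (5 genes) gave 3 to 124 with 1 library left out. In other settings it was 3 with libraries shifted to the same median, 2 with quantile normalisation or without both low-detection libraries, 1 with library weights or a pseudocount of 0.1 ppm, and 0 from the 12 libraries alone, with or without the block. For counts that moved, the cause was not tested.

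Whether the replicate numbers of the titles pair Ctrl with KO samples is not stated, though the sexes matched by replicate number. Deviations of same-numbered Ctrl and KO libraries correlated at 0.0184, -0.0104 and 0.0193 across genes, and not every library correlated best with its own number. These correlations cannot decide about pairing, because each deviation was taken from a mean of only 3 libraries. With a replicate block over all libraries 91 genes passed, 63 higher and 28 lower, and all 70 were among them. Depth in reads is unknown, so the counting error of genes near 0 could not be estimated. Ctrl replicate 2 also limits what can be read of low genes.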

Other observations

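Some genes that passed belong to none of the lists described. Slc45a3, a solute carrier, was at 0.254, 1.11 and 6.69 in Ctrl and 123, 127 and 40.1 in KO (log2 difference 3.85, limma adjusted p = 0.037), and Tent5c, a poly(A) polymerase of late erythroid and plasma cells, was at 0.258, 0.0319 and 1.86 in Ctrl and 50.4, 65.3 and 268 in KO (4.41, adjusted p = 0.037). Pde4d, a cyclic AMP phosphodiesterase, was at 63.8, 103 and 92.8 in Ctrl and 345, 361 and 299 in KO (1.92, adjusted p = 0.0371). Among falls, Pag1, a membrane adaptor of Src-family kinase signalling, was at 1158, 2088 and 1611 in Ctrl and 720, 559 and 830 in KO (-1.18, adjusted p = 0.0377), and Mn1, a transcriptional coactivator of myeloid leukaemia, was at 135, 727 and 121 in Ctrl and 39.1, 9.46 and 43.1 in KO (-2.95, adjusted p = 0.0381). None of these 5 passed without Ctrl replicate 2 (adjusted p from 0.0514 to 0.159).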
